A study of Mus musculus with 3 samples.

Results

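The cells described here were neutrophils of mouse 4T1 tumours that carried a large share of RNA for the inflammatory mediators Ccl3, Ccl4, Tnf and Il1a. They were chosen by 4 limits on the share of a cell's unique molecular identifiers (UMIs, 1 per captured RNA molecule). The cell had at least 1% of its UMIs from 8 neutrophil genes (S100a8, S100a9, G0s2, Hdc, Csf3r, Il1r2, Trem1 and Clec4e) and under 0.1% from the macrophage genes C1qa, C1qb and C1qc. It had under 1% from the interferon-induced genes Isg15, Rsad2, Ifit1 and Ifit3, and at least 4% from Ccl3, Ccl4, Tnf and Il1a together. Cells with fewer than 200 genes or over 20% mitochondrial UMIs had been left out before. The limits selected 1260 inflammatory neutrophils out of 6493 neutrophils and 16353 kept cells. Of the other neutrophils, 3343 fell under both the interferon and the inflammatory limit and are called the rest, and 1890 were at or over the interferon limit and are called interferon-high.

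The study asked how the cells that make up 4T1 tumours differ once Cpt1a, the carnitine palmitoyltransferase that admits long-chain fatty acids to mitochondrial oxidation, is depleted in the tumour line. 4T1 is a mouse mammary carcinoma line, and the tumours were grown from it in female mice aged 8 to 10 weeks and kept for 8 days. The sgVC group carried a control guide and is labelled wild type, and the sgCPT1A group carried a guide against CPT1A and is labelled a knockdown. Whole tumours were digested with papain (20 U/mL) and DNase for 10 min at 37 °C with no sort described, and RNA was counted with 10x Genomics 3′ chemistry. Each group was 1 library, an additional sgCPT1A sample listed by the labels was not analysed here on its own and may or may not be part of the sgCPT1A counts, and the labels do not say whether animals were pooled. There is therefore no replicate, no test was made, and the intervals below are exact 95% intervals that cover counting error only. A difference between the groups cannot be told apart from a difference between 2 libraries.

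Neutrophils leave the marrow with granules already filled, follow chemokines through the receptor Cxcr2, and alter their transcripts once in a tissue. Signals through Toll-like, interleukin-1 and TNF receptors free the transcription factor NF-kappaB from its inhibitor Nfkbia, and the factor then drives genes for chemokines, cytokines and survival proteins, among them Nfkbia itself. Ccl3 and Ccl4 attract monocytes, T cells and natural killer cells, Tnf acts on endothelium and leukocytes, and Il1a is an alarm cytokine that signals through the interleukin-1 receptor.

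The libraries differed in depth and make-up. The median barcode had 10809 UMIs in sgVC and 2786 in sgCPT1A, but neutrophils were shallow in both. Inflammatory neutrophils had a median of 1577.5 UMIs in sgVC and 2853.5 in sgCPT1A, close to the 1493 and 2436.5 of the rest. The rest included 29 sgVC and 24 sgCPT1A cells with 10000 UMIs or more, against 0 inflammatory neutrophils, whose highest were 5563 and 8660. Markers of other cells moved with this. Of 9 fibroblast and endothelial markers, the summed level was 141 CPM (UMIs of a gene per 1000000 UMIs of the cells) in sgVC inflammatory neutrophils against 1019 CPM in the rest, and 387 against 3179 CPM in sgCPT1A. The 7 tumour cell markers summed to 103 against 540 in sgVC and 16.3 against 25.8 CPM in sgCPT1A, and the 12 monocyte and macrophage markers to 151 against 379 and 116 against 289 CPM. Values are therefore given again where they move once cells with 0.1% or more of their UMIs from such markers are left out, an alternative chosen after seeing the data. The libraries shared 18 barcodes, of which 1 was an sgVC and 2 were sgCPT1A inflammatory neutrophils and 0 were so in both. Cpt1a itself had 2 UMIs in the sgVC and 30 in the sgCPT1A inflammatory neutrophils, too few to check the labels, and the guide was carried by the tumour cells, not by these host cells.

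The 4 genes that chose the cells made up 6.17% of all UMIs of the sgVC inflammatory neutrophils and 6.42% in sgCPT1A. Since the limit was set on these genes, their values are a description. Most of the sum was chemokine RNA. Ccl3 (chromosome 11, 83647844 to 83649355, minus strand, GRCm38) stood at 29741 in sgVC and 30296 CPM in sgCPT1A, against 4674 and 8137 CPM in the rest. Ccl4, its neighbour on the same chromosome (83662584 to 83664683, plus strand), stood at 26513 and 25612 CPM, against 3432 and 5925 CPM in the rest. Tnf (chromosome 17, 35199381 to 35202007, minus strand) was an order of magnitude lower, at 2198 and 2997 CPM against 741 and 1632 CPM. Il1a (chromosome 2, 129299610 to 129309972, minus strand) stood at 3241 and 5268 CPM against 829 and 2183 CPM. Ccl3 gave 48.2% and 47.2% of the 4-gene UMIs, Ccl4 43.0% and 39.9%, Il1a 5.25% and 8.21%, and Tnf 3.56% and 4.67%. All 4 genes were thus higher in the selected cells of each library than in the rest. The interferon-high cells of sgCPT1A came closer, with Tnf at 0.274% of UMIs against 0.2997% and Il1a at 0.412% against 0.527%. Over all alternatives run, the log2 ratio of Tnf fell as low as 0.46 in sgCPT1A, under 1.5-fold, while Ccl3, Ccl4 and Il1a stayed over it. The mix tilted towards Tnf and Il1a in sgCPT1A, and so did that of the rest. There Tnf gave 7.66% and 9.13% and Il1a 8.57% and 12.2% of the 4-gene UMIs.

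Cell by cell, the limit was met by Ccl3 or Ccl4 and hardly ever by the cytokines. Ccl3 was the largest of the 4 in 131 of 244 sgVC cells (53.7%) and 571 of 1016 sgCPT1A cells (56.2%), and Ccl4 in 113 (46.3%) and 442 (43.5%). Tnf was the largest in 0 and 2 cells and Il1a in 0 and 1. UMIs of all 4 genes were found in 122 of 244 sgVC cells and in 848 of 1016 sgCPT1A cells (83.5%, 81.0 to 85.7). The deeper sgCPT1A cells could show more genes, so each cell was also thinned to 500 UMIs. Tnf was then seen in 41.4% of sgVC and 61.7% of sgCPT1A inflammatory neutrophils (66.4% and 89.6% unthinned), against 25.5% and 42.7% of the rest. Il1a was seen in 122 of 244 sgVC cells and 77.9% of sgCPT1A cells after thinning (70.9% and 92.8% before), against 24.4% and 46.2% of the rest. Fibroblasts, which should lack both, gave 0.271% and 1.54% for each gene at the same thinned depth, from unthinned medians of 14532 and 23938 UMIs. Tnf and Il1a RNA was therefore also frequent outside the selected cells, at thinned shares far above that of fibroblasts. Among the rest, 9.59% of sgVC cells (135) but 1.39% of sgCPT1A cells (27) had no UMI of any of the 4 genes.

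The selected cells lay on a slope with no gap at the limit. The plot of the 4-gene share shows cells of both libraries on either side of 4% in like numbers. There were 48 sgVC and 160 sgCPT1A cells of the rest between 3.5 and 4%, and 55 and 151 inflammatory neutrophils between 4 and 4.5%. Just below and just above the limit the sgCPT1A cells had 16491 and 16764 CPM of S100a8, 665 and 514 CPM of Csf3r, and 6477 and 7927 CPM of Lcn2. The sgVC cells had 10550 and 10729 CPM of S100a8, 889 and 693 CPM of Csf3r, and 1566 and 3616 CPM of Lcn2. On this share the class is thus a range of a graded quantity, and whether it forms a cluster by other genes was not tested.

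**Figure D1:**
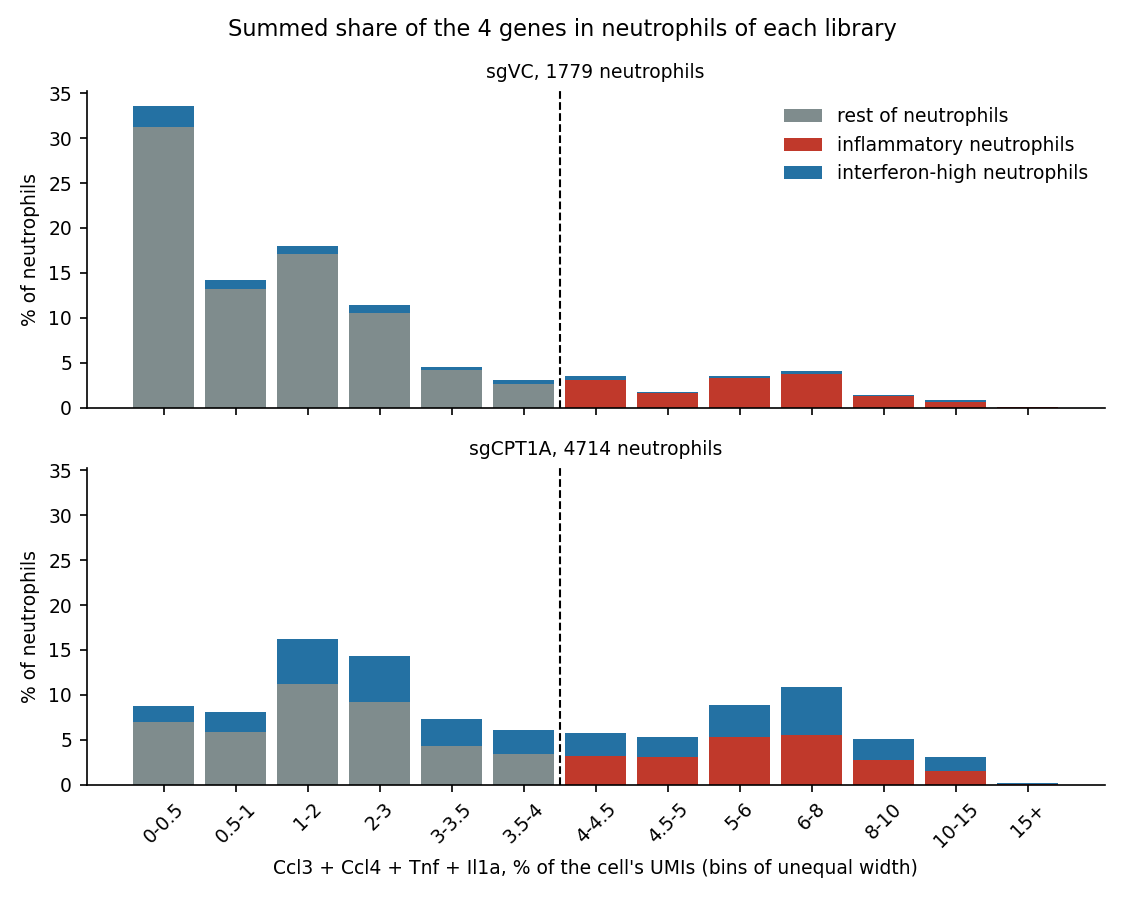
Share of each neutrophil's UMIs from Ccl3, Ccl4, Tnf and Il1a (horizontal axis, bins of unequal width), as a percentage of all neutrophils of the library (vertical axis, 1779 in sgVC and 4714 in sgCPT1A); colours mark the 3 classes and the dashed line the 4% limit. Cells at 4% or more, interferon-high ones included, were 15.2% of sgVC and 39.2% of sgCPT1A neutrophils.

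Inflammatory neutrophils made up 13.7% of sgVC neutrophils (244 of 1779, Clopper-Pearson interval 12.1 to 15.4) and 21.6% of sgCPT1A neutrophils (1016 of 4714, 20.4 to 22.8), a ratio of 1.57. The ratio depended on how interferon-high cells were counted, because these were 7.20% of sgVC but 37.4% of sgCPT1A neutrophils. Of neutrophils under the interferon limit, 14.8% (13.1 to 16.6) and 34.4% (32.7 to 36.2) were inflammatory, a ratio of 2.33. With any interferon level, 15.2% and 39.2% of neutrophils reached 4%, a ratio of 2.59. Within the interferon-high class itself, 26 of 128 sgVC cells (20.3%, 13.7 to 28.3) and 834 of 1762 sgCPT1A cells (47.3%, 44.98 to 49.7) also reached it. Of all kept cells the inflammatory neutrophils were 2.54% in sgVC and 15.1% in sgCPT1A, a ratio of 5.93, but the neutrophils as a whole were 18.5% and 69.9%. sgVC held 3692 cells with tumour cell markers at 0.2% or more and sgCPT1A 30, and fewer cells of a type cannot be told apart from fewer cells captured. After thinning every cell to 500 UMIs and applying the limits again, the shares of neutrophils were 14.03% and 21.2%.

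Few genes outside the selecting ones were higher in the inflammatory neutrophils than in the rest of both libraries, among them Il12a, Il36a, Csf3, Lcn2, Il1rn and Bcl2a1a. Across all genes with at least 50 UMIs over the groups compared, 250 of 4773 were at least 1.5-fold higher in sgVC (5.24%) and 2295 were lower (48.1%). In sgCPT1A 224 of 5880 were higher (3.81%) and 2622 lower (44.6%), and 70 of 4447 were higher in both libraries (1.57%) and 1382 lower in both (31.1%). The intervals lay off 0 for 64 of these 70 and 976 of these 1382. The balance went with a shift of the whole scale, since the median gene stood at a log2 ratio of -0.53 in sgVC and -0.49 in sgCPT1A. Scaling by the median ratio gave 434 genes higher and 686 lower in both libraries. Without cells of 0.1% or more other-cell markers the median was -0.27 and -0.30, and 42 genes were higher and 467 lower in both, 35 and 360 of them among those above. The rest leaves out the interferon-high cells, of which 20.3% in sgVC and 47.3% in sgCPT1A also reached the 4% limit. With these added to the comparison group, 31 genes were higher and 1020 lower in both, 30 and 927 of them among the 70 and 1382. The scatter of ratios in the libraries shows Ccl3, Ccl4, Il12a, Il36a, Il1a, Bcl2a1a, Lcn2 and Csf3 at the upper right, away from the bulk.

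**Figure D2:**
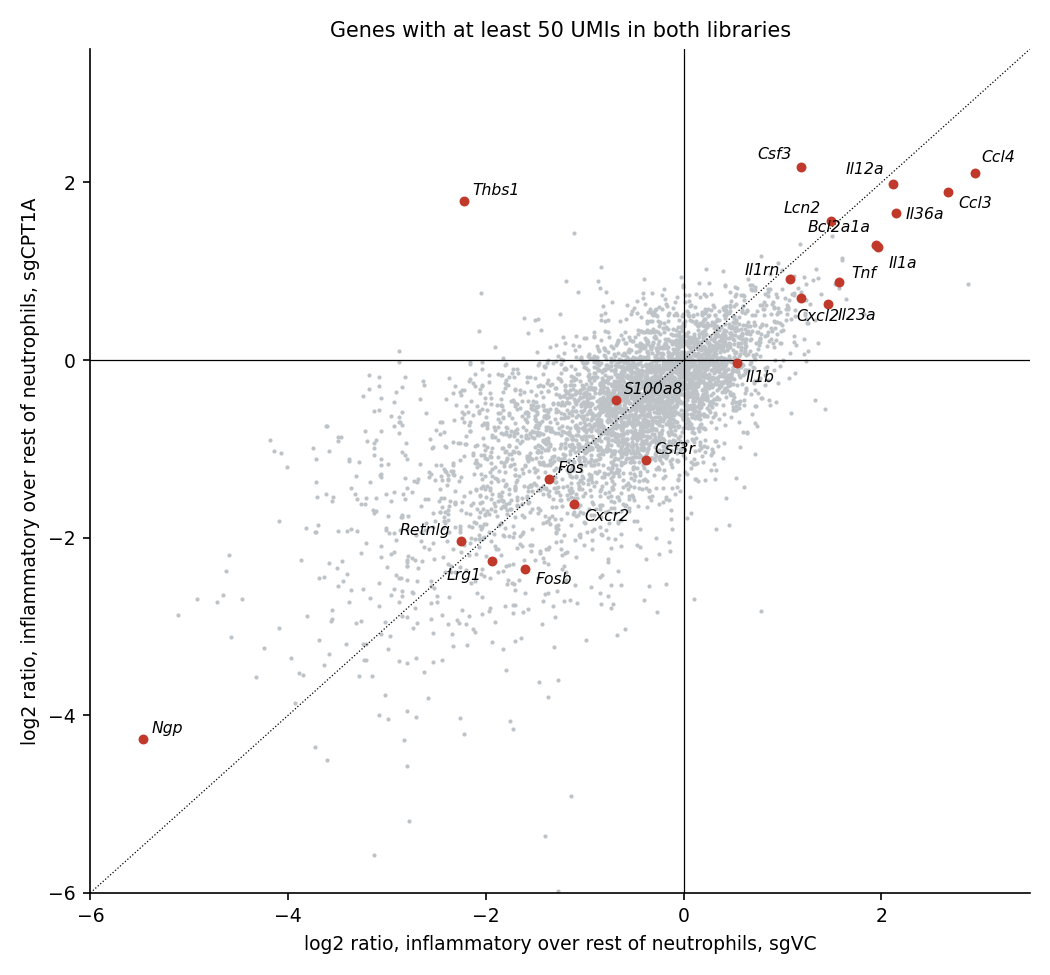
Log2 ratio of CPM in inflammatory neutrophils over the rest in sgVC (horizontal) and sgCPT1A (vertical), 1 point per gene with at least 50 UMIs in both libraries (4395 of 4447 drawn, the others being at 0 in a class or off the axes); named genes are red and the dotted line marks equal ratios. Ccl3 and Ccl4 lie at 2.67 and 2.95 on the horizontal axis, Thbs1 at -2.22 and 1.79.

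Among the other chemokines, the neutrophil attractants of the Cxcl1, Cxcl2 and Cxcl3 cluster were the most abundant. Cxcl2 alone took 93502 in sgVC and 103625 CPM in sgCPT1A, the highest level of the genes named here, against 41110 and 63973 CPM in the rest (log2 ratios 1.19 and 0.70). Cxcl3 stood at 4653 and 4599 CPM against 2510 and 2967 CPM. Cxcl1, chosen after its values were seen, stood at 2244 and 2113 CPM against 942 and 1587 CPM, which passed the 1.5-fold limit in sgVC (1.25) and not in sgCPT1A (0.41). Of the 13 other chemokines measured in both libraries, Cxcl2 and Cxcl3 were higher in both, against 1.57% of all genes. Another 4 were lower in both, a share near the 31.1% of all genes. The lower ones were Ccl2, Cxcl5 and, named after their values were seen, Ccl5 and Ccl7, which are known products of monocytes, lymphocytes or stroma. Ccl2 stood at 27.7 in sgVC and 24.1 CPM in sgCPT1A against 266 and 108 CPM. These results moved with the marker-bearing cells. With those left out Cxcl2 stood at 0.88 and 0.56 and Cxcl3 at 0.58 and 0.52, so neither passed 1.5-fold in both libraries. Ccl5 turned to 2.31 and 0.69, Cxcl5 turned to 0.046 and Ccl7 to 0.89 in sgCPT1A, while Ccl2 stayed lower at -1.35 and -0.71.

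The cytokine and growth factor list counted 4 genes higher in both libraries and 0 lower in both of 14 measured, against 1.57% and 31.1% of all genes. The list medians were 0.51 and 0.64 against the -0.53 and -0.49 of all genes. Il12a, the p35 subunit of interleukin-12, stood at 95.7 in sgVC and 69.2 CPM in sgCPT1A against 22.1 and 17.5 CPM (log2 2.11, interval 1.49 to 2.72, and 1.98, 1.62 to 2.35). Il23a, the p19 subunit of interleukin-23, stood at 834 and 857 CPM against 304 and 552 CPM. Both subunits were higher in the selected cells of each library. Csf3, the granulocyte colony-stimulating factor that Csf3r binds, was the gene whose level differed most between the libraries among these. It stood at 111 CPM (44 UMIs) in sgVC and 551 CPM (1624 UMIs) in sgCPT1A, against 48.8 and 122 CPM (log2 1.18 and 2.17). After thinning, Csf3 was seen in 5.33% of sgVC and 17.5% of sgCPT1A inflammatory neutrophils (9.02% and 34.0% unthinned), in 1.14% and 4.49% of the rest and in 2.71% and 2.50% of fibroblasts. Inhba, the activin A subunit, stood at 118 and 267 CPM against 78.0 and 161 CPM, and was named after its values were seen. With the marker-bearing cells left out, Csf3, Il12a and Inhba were higher in both, and Il23a was at 0.49 in sgCPT1A.

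In the interleukin-1 family the antagonist Il1rn and the agonist Il36a were higher in both libraries, and Il1b was not. Il1rn, which blocks the interleukin-1 receptor, stood at 2057 in sgVC and 4029 CPM in sgCPT1A against 977 and 2145 CPM (log2 1.07 and 0.91). Over all alternatives run, Il1rn fell as low as 0.40 in sgCPT1A, under 1.5-fold, while Il36a stayed over 1.5-fold in both libraries. Il1b, the inflammasome-processed cytokine, stood at 22326 and 17765 CPM against 15342 and 18191 CPM (0.54 and -0.03), so its high level was shared by the rest. Il36a, an interleukin-36 agonist, was rare at 50.4 and 77.6 CPM but stood above the 11.4 and 24.7 CPM of the rest (2.14, 1.26 to 2.99, and 1.65, 1.34 to 1.98). Nlrp3, the inflammasome sensor, stood at 2921 and 4224 CPM against 1545 and 3299 CPM (0.92 and 0.36), and at 0.57 in sgVC without marker-bearing cells. In the list of 11 measured family and inflammasome genes, which leaves out Il1a and Il36a, Il1rn alone was higher in both libraries and 0 were lower in both. Of all genes, 1.57% were higher and 31.1% lower in both.

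**Figure D3:**
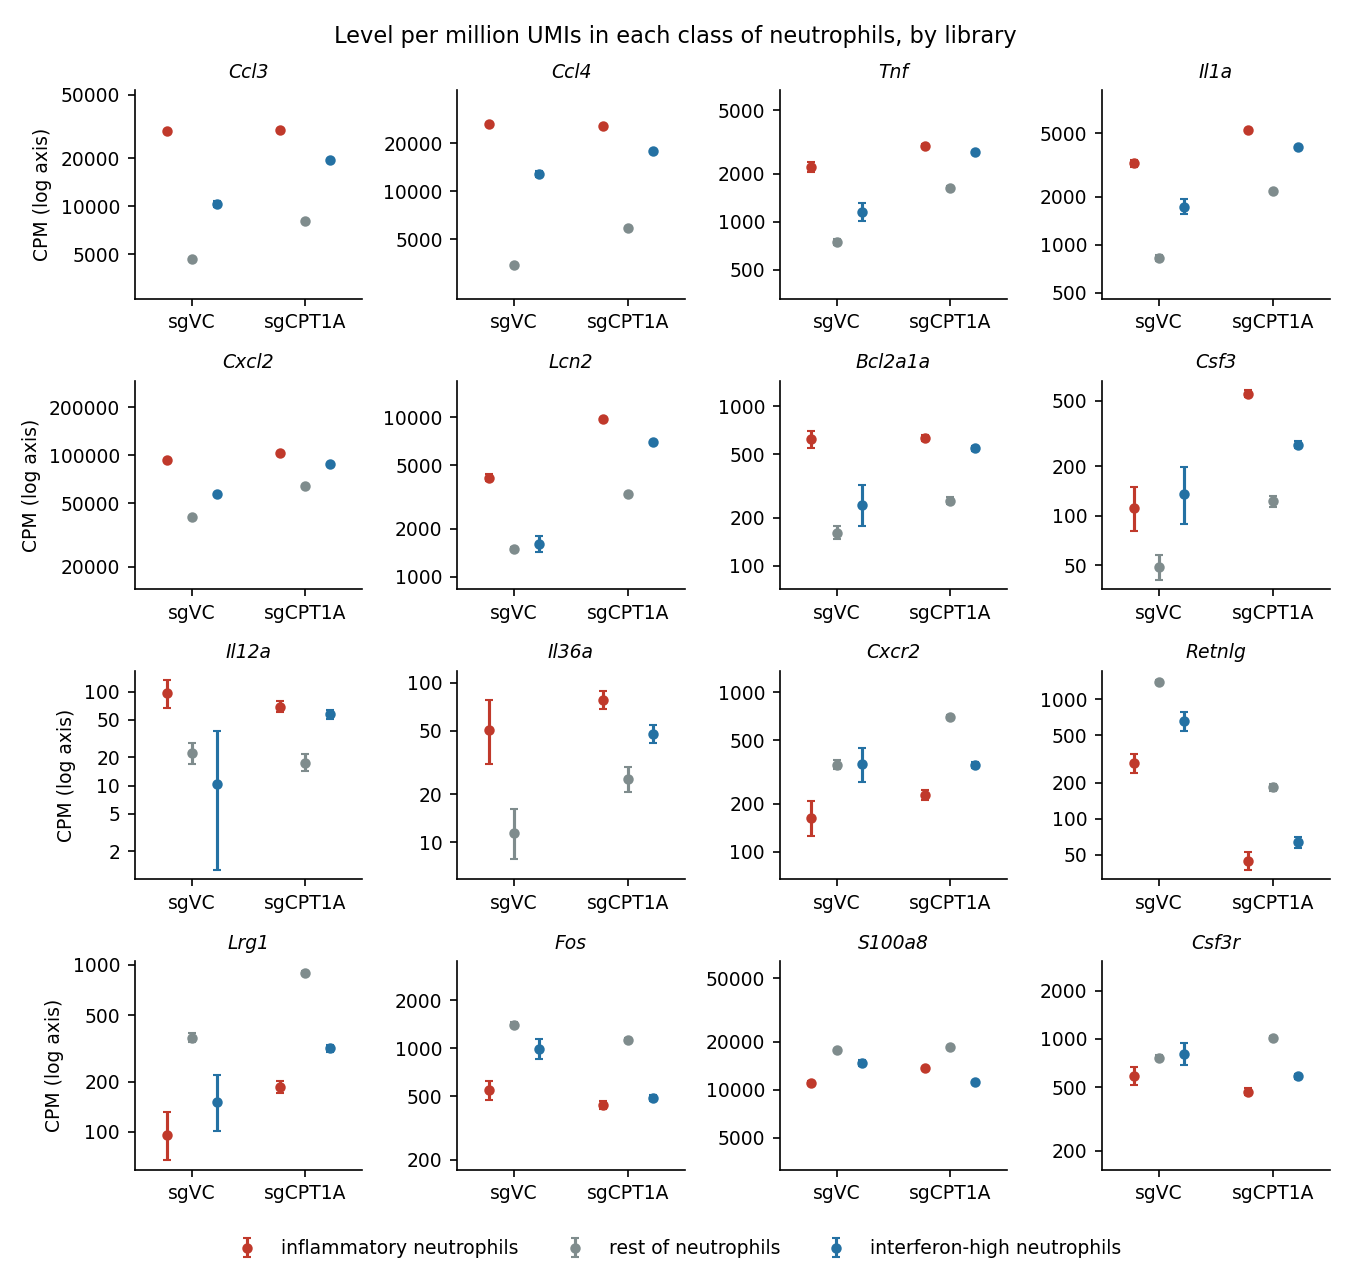
CPM (log axes) of 16 genes in inflammatory (red), rest (grey) and interferon-high (blue) neutrophils of the 2 libraries, with exact Poisson 95% intervals that cover counting error only; Il36a had 0 UMIs in sgVC interferon-high cells and is not drawn there. The red points are highest for Ccl3 to Bcl2a1a and lowest for Cxcr2, Retnlg, Lrg1 and Fos.

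Lists of NF-kappaB genes had medians above the -0.53 in sgVC and -0.49 in sgCPT1A of all genes. This was not particular to them. Lists such as glycolysis (-0.24 and 0.21) and hypoxia response (0.14 and 0.28) also lay above, while others, such as secondary and tertiary granules (-1.66 and -1.63), lay below. Of all genes, 5.24% were higher in sgVC, 3.81% in sgCPT1A and 1.57% in both. Of 20 other NF-kappaB targets 14 were higher and 0 lower in sgVC (median 0.82), and 5 higher and 1 lower in sgCPT1A (0.32). The 5 that were higher in both were Sod2, Bcl2a1a, Bcl2a1b, Bcl2a1d and Ikbke. The same 5 were higher in both once marker-bearing cells were left out. Over all alternatives run, Ikbke fell as low as 0.12 in sgVC, and Sod2 to 0.55 and Bcl2a1b to 0.52 in sgCPT1A. These lie under 1.5-fold, while Bcl2a1a and Bcl2a1d stayed over it in both libraries. Sod2, the mitochondrial superoxide dismutase, named after its values were seen, stood at 2674 and 3558 CPM against 1230 and 1849 CPM. Ikbke, a kinase of the pathway, stood at 68.0 and 169 CPM against 22.4 and 77.3 CPM. Of 11 inhibitors and feedback genes, Nfkbib, Tnip1 and Irak3 were higher and Bcl3 was lower in both, Nfkbib and Bcl3 being named after their values were seen and Nfkbib falling to 0.36 in sgVC without marker-bearing cells. Nfkbia, the most abundant inhibitor, stood at 16103 and 17908 CPM against 10065 and 15178 CPM (0.68 and 0.24). Tnip1, a partner of the deubiquitinase A20, stood at 126 and 321 CPM against 68.8 and 184 CPM, and Irak3, a brake on Toll-like receptor signalling, at 154 and 296 CPM against 65.9 and 155 CPM. The 5 subunits of the factor were not past 1.5-fold in sgCPT1A in either direction, while Nfkb1 (0.63) and Nfkb2 (0.91) were in sgVC. Among TNF receptors, Tnfrsf1b stood at 622 and 883 CPM against 326 and 528 CPM (0.93 and 0.74, and 0.57 in sgVC without marker-bearing cells).

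The promoters of some of these genes carry the NF-kappaB consensus site, and 6 of them are shown for chemokine, inhibitor and target genes named above. RefSeq promoters (GRCm38.p6, 300 bases each, 250 before and 50 after the start) were searched on both strands for the kappaB consensus, and 2779 of 32851 (8.46%) held it. Each line gives 30 bases on the gene's strand, with the matched bases in capitals.
Cxcl1, chr5:90891165-90891194, plus strand: ctgtactccGGGAATTTCCCtggcccggag
Cxcl2, chr5:90903793-90903822, plus strand: ctgagctcaGGGAATTTCCCtggtccccgg
Cxcl3, chr5:90786019-90786048, plus strand: agctgcgggGGGAATTTCCCcagcccgggc
Nfkbia, chr12:55492657-55492686, minus strand: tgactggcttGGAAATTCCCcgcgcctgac
Sod2, chr17:13007746-13007775, plus strand: cggggcggacGGGGTTCCCCgaggcggggc
Tnip1, chr11:54962978-54963007, minus strand: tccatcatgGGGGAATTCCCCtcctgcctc
The first matched base lay 71, 97 and 73 bases before the start in Cxcl1, Cxcl2 and Cxcl3, whose matched bases were identical, and 29, 83 and 58 bases before it in Nfkbia, Sod2 and Tnip1. No match was found in this window for Ccl3, Tnf, Il1a, Lcn2, Il12a or Bcl2a1a. Il1rn, Irak3, Ikbke, Cybb, Hal, Dock10, Ggta1, F10 and Pwp1 had no match either. A missing match says only that these letters are not in the window. Ccl4, Csf3, Il36a and Thbs1 were not in the table. Hilpda and Sh3bp5 also held a match. Of 211 genes that the naming rule gave, 156 were in the table with 189 promoters, of which 34 held a match. A match describes the sequence and is no evidence of binding.

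Survival genes of the Bcl2a1 family were higher in the inflammatory neutrophils of both libraries. Bcl2a1a, an antiapoptotic BCL2 relative, stood at 619 in sgVC and 628 CPM in sgCPT1A against 160 and 255 CPM (log2 1.95 and 1.30). Bcl2a1d (229 and 248 against 108 and 128 CPM) and Bcl2a1b (874 and 926 against 438 and 531 CPM) followed, but the 3 genes are near-identical copies and reads may be split among them. Cflar, which blocks caspase-8 activation, stood at 567 and 721 CPM against 272 and 477 CPM, and Gadd45a, a stress-induced gene, at 1297 and 1578 CPM against 739 and 1003 CPM. Bcl2a1b, Cflar and Gadd45a were named after their values were seen. In all, 5 of 18 survival and apoptosis genes were higher in both libraries and 1 was lower, against 1.57% and 31.1% of all genes. The list medians were 0.20 and 0.06. Mcl1, on which neutrophil survival depends, was under 1.5-fold in both libraries at 3830 and 3350 CPM against 3450 and 3650 CPM. With marker-bearing cells left out, the 3 Bcl2a1 genes were higher in both, and Cflar (0.50) and Gadd45a (0.47) were under 1.5-fold in sgCPT1A.

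Lcn2, the iron-siderophore-binding lipocalin of neutrophil granules, stood apart from other granule genes. It stood at 4200 in sgVC and 9823 CPM in sgCPT1A inflammatory neutrophils against 1492 and 3317 CPM in the rest (log2 1.49, 1.41 to 1.58, and 1.57, 1.54 to 1.59). At thinned depth it was seen in 38.9% and 71.9% of them (48.4% and 84.4% unthinned), in 23.1% and 37.0% of the rest and in 0.653% and 2.51% of T cells, of unthinned medians 3232 and 5871.5 UMIs. Cells with tumour markers, of medians 25750.5 and 12712.5 UMIs, also held it in 27.2% and 23.3% at thinned depth, and whether RNA from them adds to its level in neutrophils was not tested. Fth1, the ferritin heavy chain, took 78527 and 75487 CPM against 45359 and 49037 CPM. Cybb and Ncf1, subunits of the NADPH oxidase, stood at 262 and 424 CPM against 123 and 253 CPM and at 232 and 331 CPM against 130 and 216 CPM. They were the 2 of 7 oxidase genes higher in both, against 1.57% of all genes. Hilpda, a hypoxia-induced lipid droplet protein, stood at 2929 and 2008 CPM against 1599 and 1024 CPM. Without marker-bearing cells Fth1 (0.53 and 0.50), Ncf1 (0.46 in sgCPT1A) and Hilpda (0.50 in sgVC) were under 1.5-fold, while Cybb and Lcn2 stayed over it in both. Further genes at the upper end in both libraries were Hal, Dock10, Sh3bp5, Ggta1, F10 and Pwp1. Hal, the histidine-degrading enzyme, stood at 63.0 CPM (25 UMIs in 12 cells) and 196 CPM against 16.8 and 80.4 CPM, with log2 ratios of 1.91 and 1.28 (1.19 in sgVC without marker-bearing cells). F10, coagulation factor X, stood at 295 and 286 CPM against 148 and 141 CPM.

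Several genes of freshly arrived neutrophils were lower. Of 13 genes of recently recruited neutrophils, 8 were lower and 0 higher in both libraries, with medians of -1.11 and -1.10, against 31.1% of all genes lower in both and medians of -0.53 and -0.49. Cxcr2, the receptor for Cxcl1 and Cxcl2, stood at 164 in sgVC and 228 CPM in sgCPT1A against 353 and 702 CPM (-1.11, interval -1.49 to -0.74, and -1.62, -1.74 to -1.50). Retnlg, a resistin-like secreted protein of marrow and blood neutrophils, stood at 292 and 44.4 CPM against 1390 and 182 CPM. Lrg1, a granule glycoprotein, stood at 95.7 and 186 CPM against 366 and 894 CPM. The chemokine receptor Cxcr4 (57.9 and 110 against 111 and 217 CPM) and the leukotriene B4 receptor Ltb4r1 (83.1 and 67.5 against 166 and 153 CPM) were also lower in both, so 3 of 8 attractant receptors were lower and 0 higher, a share near the 31.1% of all genes lower in both. Cxcr4 belongs to the list of tumour-resident neutrophil genes. Of 16 genes of that list, 1 was higher and 1, Cxcr4, lower in both libraries, with medians of -0.16 and -0.03. The calcium-binding protein S100a6 stood at 1518 and 842 CPM against 3382 and 1631 CPM, and Ifitm1 at 2161 and 620 CPM against 3828 and 1280 CPM. With marker-bearing cells left out, 9 of the 13 recruited-cell genes were lower in both.

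Neutrophil identity genes used by the limits were present, some lower and some higher than in the rest. Of the 8, 1 was higher and 1 lower in sgVC, 0 and 2 in sgCPT1A, and 0 either way in both. Of all genes, 5.24% were higher and 48.1% lower in sgVC, and 3.81% and 44.6% in sgCPT1A. Clec4e stood above the rest at log2 0.77 and 0.37. S100a8, a subunit of calprotectin, had a UMI in 88.5% of sgVC and 94.7% of sgCPT1A inflammatory neutrophils and stood at 11082 and 13630 CPM against 17854 and 18669 CPM. At thinned depth it was seen in 78.7% and 83.0%, and in 0.542% and 2.31% of fibroblasts. The log2 ratios of S100a8 were -0.69 and -0.45, or -0.16 and 0.04 with median ratio scaling. Csf3r, the receptor for granulocyte colony-stimulating factor, had a UMI in 54.1% and 60.9% of them (24.6% and 18.9% thinned, against 0% and 0.192% of fibroblasts) and stood at 587 and 468 CPM against 765 and 1022 CPM (-0.38, or 0.15 with median ratio scaling, and -1.13). All 6 marker genes given for these cells, S100a8, Csf3r, Ccl3, Ccl4, Tnf and Il1a, were detected in both libraries. The limits that chose the cells used all of them, so their detection is no independent check of identity.

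Most other granule genes were lower, with 8 of 12 lower in both libraries, against 31.1% of all genes, and medians of -1.66 and -1.63. The list does not stand for intact granules, as its genes are made mainly in marrow precursors. Ngp, a protein of secondary granules, had 1 UMI in sgVC and 23 UMIs in sgCPT1A inflammatory neutrophils against 312 and 779 UMIs in the rest, where 41 and 18 cells held them. Leaving out every cell with a UMI of another cell type turned the Ngp ratio to 0.97 in sgCPT1A, so it rested on few cells. Cd177 stood at 7.55 and 3.73 CPM against 33.5 and 11.6 CPM, with 3 and 11 UMIs. Mmp8, a collagenase, and Anxa1, an inhibitor of recruitment, both named after their values were seen, stood at 42.8 and 10.2 CPM against 124 and 43.2 CPM and at 101 and 26.8 CPM against 343 and 132 CPM.

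Some immediate early genes were lower, and whether the list as a whole lay below the typical gene depended on the marker-bearing cells. Of 26 AP-1 and immediate early genes 1 was higher and 6 lower in both libraries (31.1% of all genes were lower in both). The medians were -0.13 and -0.36 against -0.53 and -0.49 for all genes. Without marker-bearing cells 0 were higher and 6 lower in both, with medians of -0.30 and -0.36 against -0.27 and -0.30 for all genes. Fos, an AP-1 subunit, stood at 546 in sgVC and 443 CPM in sgCPT1A against 1407 and 1122 CPM, and Fosb at 174 and 41.0 CPM against 529 and 210 CPM. Junb, the most abundant of those named, was under 1.5-fold in both libraries at 6406 and 5722 CPM against 6222 and 7055 CPM. Of heat shock and dissociation stress genes 0 were higher and 4 of 10 lower in both, near the 31.1% of all genes, and 1 was lower in both without marker-bearing cells. Nuclear respiratory chain genes were lower in 17 of 19 cases in both libraries, against 31.1% of all genes, with medians of -1.72 and -1.03. Once marker-bearing cells were left out 8 were lower in both, with medians of -0.64 and -0.65, so that difference shrank with the marker-bearing cells of the rest.

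Within the class, genes were described over bands of the 4-gene share, which the selection used along with the neutrophil genes. Cells at 4 to 6%, 6 to 10% and 10% or more numbered 142, 89 and 13 in sgVC and 548, 390 and 78 in sgCPT1A. The median share of the 8 neutrophil genes was 4.73%, 3.46% and 2.68% over these bands in sgCPT1A and 4.44%, 5.13% and 1.90% in sgVC. In sgCPT1A, S100a8 stood at 15778, 11831 and 6760 CPM, Cxcr2 at 293, 162 and 81.9 CPM and Lrg1 at 249, 125 and 22.7 CPM. Not every neutrophil gene of the rule followed S100a8, with Hdc, the histamine-making enzyme, at 1760, 1715 and 1833 CPM and G0s2 at 4351, 4143 and 4563 CPM. Over the same bands Csf3 stood at 424, 614 and 1169 CPM and Lcn2 at 8590, 10999 and 13042 CPM. In sgVC Lcn2 ran the other way, at 4731, 3574 and 2811 CPM, while Bcl2a1a stood at 407, 793 and 1715 CPM. S100a8 in sgVC stood at 10897, 12316 and 4431 CPM and Cxcr2 at 201, 115 and 95.3 CPM. Lrg1 was flat there at 96.2, 94.9 and 95.3 CPM, with 2 UMIs in the top band. Ccl4 overtook Ccl3 in the top band of both libraries, at 59269 against 48788 in sgVC and 57741 against 50371 CPM in sgCPT1A. Il1b was nearly flat over the bands, at 18061, 17335 and 17737 CPM in sgCPT1A. The top sgVC band had 13 cells and 20989 UMIs, which limits every value there.

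**Figure D4:**
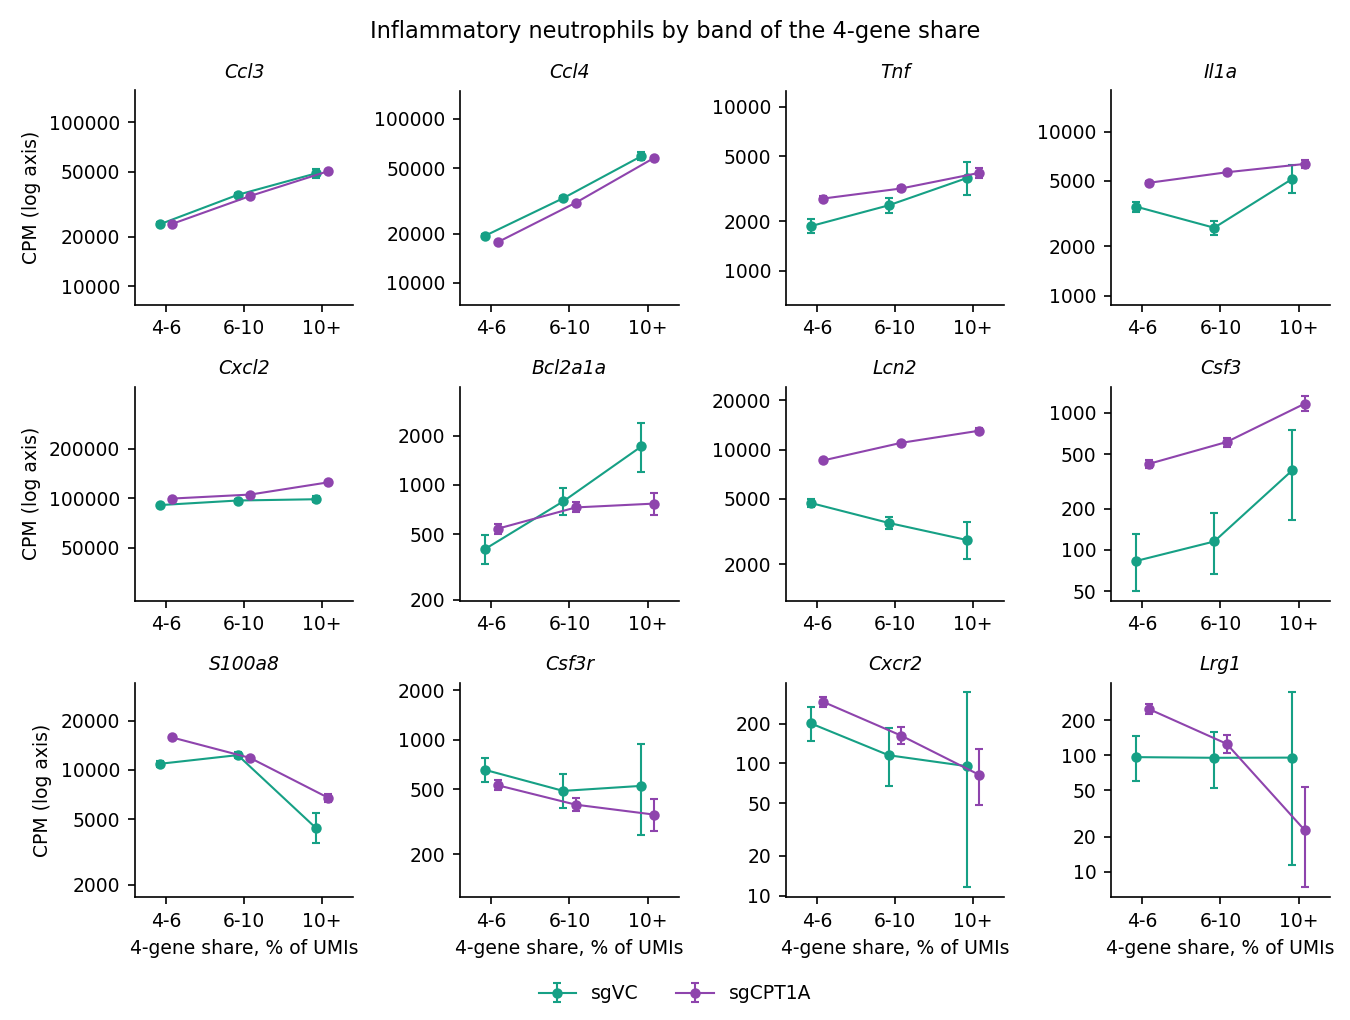
CPM (log axes) of 12 genes in inflammatory neutrophils split by the share of UMIs from Ccl3, Ccl4, Tnf and Il1a (4 to 6, 6 to 10, and 10% or more), in sgVC (green) and sgCPT1A (purple), with exact Poisson 95% intervals. Ccl3 and Ccl4 climb by construction; S100a8 ends at 4431 in sgVC and 6760 CPM in sgCPT1A.

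Across all neutrophils thinned to 500 UMIs, Ccl3 and Ccl4 went together with Spearman correlations of 0.40 in sgVC (1779 cells) and 0.49 in sgCPT1A (4714 cells). Ccl3 and Cxcl2 gave 0.52 and 0.46, and Ccl3 and Il1a 0.30 and 0.36. Ccl4 and Tnf gave 0.07 and 0.13, too weak at this depth to read. Cxcr2 ran against Ccl3, at -0.17 and -0.30, and Ccl3 and Il1b gave 0.07 and -0.06, also too weak to read. These are descriptions, since the cells of a library share its preparation and depth.

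Interferon-high neutrophils lay between the other classes for Ccl3 and Lcn2. Their Ccl3 stood at 10389 in sgVC and 19654 CPM in sgCPT1A, and their Lcn2 at 1609 and 6970 CPM. Csf3 stood at 271 CPM in those of sgCPT1A, between the 122 and 551 CPM of the other classes, but at 136 CPM in those of sgVC, above the 111 CPM of the inflammatory class. Below the interferon limit, the inflammatory neutrophils of sgCPT1A still held more interferon-induced RNA than those of sgVC. Their median share of the 4 limiting genes was 0.493% against 0.177%.

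Between the libraries, inflammatory neutrophils of sgCPT1A had 601 of 3271 genes at least 1.5-fold higher (18.4%) and 805 lower (24.6%) than those of sgVC, with intervals off 0 for 357 and 590. The median gene was at -0.08. The limit holds the sum of the 4 genes nearly equal, and Ccl3 (0.03) and Ccl4 (-0.05) did not differ by 1.5-fold. Il1a stood at 5268 against 3241 CPM (0.70, 0.62 to 0.78), and Tnf at 2997 against 2198 CPM (0.45, 0.35 to 0.55). Both differed relatively more in the rest, with Il1a at 0.218% against 0.0829% of UMIs and Tnf at 0.163% against 0.0741%. Csf3 had a ratio of 2.31 (1.88 to 2.78) and 1.33 in the rest. Lcn2 had a ratio of 1.23 (1.15 to 1.30) and 1.15 in the rest, and Il1rn 0.97 (0.87 to 1.07) and 1.14 in the rest. These library differences in Lcn2 and Il1rn were of like size inside and outside the selected cells.

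Thbs1, which codes for the matrix glycoprotein thrombospondin-1, had the highest ratio between the libraries in these cells. It had 3 UMIs in sgVC (7.55 CPM) and 781 UMIs in 144 cells in sgCPT1A (265 CPM), a log2 ratio of 5.13 (3.58 to 7.41), while the rest had 35.3 and 76.6 CPM (1.12). At thinned depth Thbs1 was seen in 0.820% of sgVC and 6.89% of sgCPT1A inflammatory neutrophils (1.23% and 14.2% unthinned), and in 14.9% and 16.2% of fibroblasts. Thbs1 is strongly expressed by fibroblasts, and fibroblast markers also moved this way, from 141 CPM in 46 of 244 cells to 387 CPM in 557 of 1016 cells, and their part in the Thbs1 difference was not tested. Without cells of 0.1% or more other-cell markers the Thbs1 ratio was 4.75. Clec1a, a C-type lectin (3.35, with 2 against 151 UMIs), and Cxcl9, an interferon-gamma-induced chemokine (3.26, with 3 against 214 UMIs), followed, at 1.87 and 2.08 in the rest. Col1a1, the collagen chain of fibroblasts, had a ratio of 2.89 with 4 against 220 UMIs. Of the 12 highest ratios, 2.04 to 5.13, 11 were also past 1.5-fold in the rest, which shares its libraries with these cells.

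Interferon-induced genes were higher in the sgCPT1A cells although the cells were chosen under a limit on such genes. Of 24 measured interferon genes outside the rule, 18 were at least 1.5-fold higher and 0 lower, with a median of 0.95 against -0.08 for all genes. Of all genes, 18.4% were higher and 24.6% lower. Slfn4, a Schlafen family gene, stood at 884 in sgVC and 1888 CPM in sgCPT1A. Cxcl10, an interferon-induced chemokine, stood at 300 and 913 CPM, Gbp5, a guanylate-binding protein, at 189 and 540 CPM, and Irgm1, an immunity-related GTPase, at 184 and 598 CPM. Among the genes that set the limit, Rsad2 stood at 607 and 1490 CPM and Isg15 at 1780 and 3250 CPM. In the rest the ratios were 1.42 for Slfn4, 1.19 for Cxcl10, 1.59 for Gbp5 and 0.92 for Irgm1, so the difference was not restricted to the selected cells. Cxcl10, Gbp5 and Irgm1 were named after their values were seen, and Gbp and Irgm genes have close copies. Of NF-kappaB genes, 6 of 12 inhibitors and feedback genes and 6 of 20 other targets were higher and 0 lower. The shares over all genes were 18.4% higher and 24.6% lower. Tnfaip2, a TNF-induced gene named after its values were seen, stood at 642 and 2344 CPM.

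Genes of recruited cells, glycolysis and hypoxia were among those lower in sgCPT1A, where 24.6% of all genes were lower and the median gene was at -0.08. Of 12 recently recruited neutrophil genes 8 were lower and 1, Lrg1, higher. Retnlg had a ratio of -2.72 (-3.09 to -2.34), Ifitm1 -1.80, and S100a6 -0.85. The receptor Cxcr2 was not lower, with a ratio of 0.48, under 1.5-fold. Of 18 glycolysis genes 7 were lower and 1 higher (median -0.40), and of 16 hypoxia genes 7 were lower and 0 higher (median -0.55). Gapdh stood at 2503 in sgVC and 1224 CPM in sgCPT1A, and Fam162a, a hypoxia-induced mitochondrial protein, at 1413 and 290 CPM. Hilpda stood at 2929 and 2008 CPM. G0s2, a lipase inhibitor and 1 of the neutrophil genes of the rule, stood at 10571 and 4289 CPM. The lowest ratios outside genes held by a lone cell were those of Scimp, a membrane adaptor (-3.73, 34 against 19 UMIs), and Lgals1, galectin-1 (-2.92). In the rest Gapdh had a ratio of -1.57, Fam162a -2.45, Scimp -2.29 and Lgals1 -2.89, so these too ran through the other neutrophils. The ribosomal RNA transcript Rn18s-rs5, an RNA quality measure, stood at 10856 in sgVC and 24434 CPM in sgCPT1A inflammatory neutrophils, and its part in these differences was not tested.

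A lone cell set some values. All 108 UMIs of Il4, all 52 of Il13 and all 25 of the basophil protease Mcpt8 in sgVC inflammatory neutrophils came from 1 cell. Il4 and Il13 were the lowest ratios between the libraries for that reason. That cell carried every basophil marker UMI of the class in sgVC (53 UMIs).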

How the data were processed

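Droplet-based 3′ single-cell RNA-seq was measured in 2 libraries, 1 per group. The deposited files hold raw counts of UMIs per gene and barcode, made with Cell Ranger 7.1.0 per the file headers. The build GRCm38 and Seurat 4.1.0 are listed beside it in the submitters' processing notes. No normalization had been applied and the lowest barcode had 500 UMIs. The libraries held 9890 (sgVC) and 7198 (sgCPT1A) barcodes and 1.56e+08 and 3.56e+07 UMIs. From these, barcodes with under 200 genes or over 20% mitochondrial UMIs were left out (280 and 455).

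UMIs were summed over the cells of each class and library and given as CPM with exact Poisson intervals. Ratios carry exact conditional binomial intervals and shares Clopper-Pearson intervals, all at 95% and for counting error only. With 1 library per group no test was made. Genes with at least 50 UMIs over the groups compared were measured, and a gene counted as higher or lower at 1.5-fold. The 41 gene lists and the selection limits were chosen with earlier results of these data known. Genes were named by rule: the genes of the selection limits, the 12 highest and 12 lowest ratios of each comparison, up to 4 genes of each list by level and ratio, markers of other cell types and Cpt1a; genes outside it are said to be named after seeing their values. Fibroblasts were cells with at least 1% of UMIs from their markers, and T cells and tumour cells had at least 0.2% from theirs.

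Doublets were called with Scrublet as an alternative only. It marked 291 of the 9610 kept sgVC barcodes, and 1 of 6743 in sgCPT1A (0.0148%), where it has not worked. Further alternatives changed the selection limits, gene and mitochondrial limits, depth, scaling, cell weights, minimum UMIs and comparison group. Gene positions were taken from GENCODE M21 (52081 of 55357 identifiers matched). Python 3.11.15, numpy 2.4.6, scipy 1.17.1, pandas 2.3.3, scanpy 1.11.5 and matplotlib 3.10.9 were used, and the scripts were tested on simulated data.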

Additional observations from a re-analysis of the deposited data

Results flagged for a closer look

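Genes whose ratio of inflammatory neutrophils over the rest pointed in opposite directions in the libraries, each by at least 1.5-fold, are given here, and the difference was not tested. Thbs1, for thrombospondin-1, had a log2 ratio of -2.22 in sgVC, with 3 UMIs in the inflammatory neutrophils, and 1.79 in sgCPT1A. Areg, for the growth factor amphiregulin, had -2.05 with 10 UMIs and 0.75. Mki67, a proliferation marker, had -1.10 with 5 UMIs and 1.43. Septin11, a cytoskeletal gene, had -0.83 with 5 UMIs and 1.05. Zfp703, a zinc finger gene, had -0.82 with 11 UMIs and 0.61. Without cells holding 0.1% or more markers of other cell types, the sgVC ratios were -0.02 for Thbs1, 0.16 for Areg, 0.57 for Mki67, 0.57 for Septin11 and -0.95 for Zfp703, against 1.94, 1.15, 1.39, 1.25 and 0.59 in sgCPT1A.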

How the results depend on the processing

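No paired analysis was possible because each group was 1 library, and for the same reason no replicate could be left out. The share of inflammatory neutrophils was higher in sgCPT1A under all 12 alternatives run, with ratios from 1.42 to 2.59. It was 20.6% in sgVC and 29.3% in sgCPT1A at a 3% inflammatory limit, 8.99% and 15.3% at 5%, and 5.003% and 10.7% (ratio 2.14) with Tnf and Il1a alone at 1%; an interferon limit of 2% gave 33.5% in sgCPT1A (ratio 2.29). Counts of genes past 1.5-fold depended on how many genes could be measured. Thinning to 500 UMIs left 103 higher and 431 lower over the rest in sgVC, 125 and 655 in sgCPT1A, 26 and 215 in both, and 243 and 226 between the libraries. Leaving out cells with any UMI of another cell type gave 135 and 784, 143 and 1040, 30 and 417, and 361 and 407 in that order. A limit of 20 UMIs gave 398 and 4056 in sgVC, 351 and 4277 in sgCPT1A, 2524 lower in both, and 1036 and 1495 between the libraries. Leaving out cells with 0.1% or more markers of other cell types, chosen after seeing the data, gave 151 and 886 in sgVC, 1418 lower in sgCPT1A, and 42 and 467 in both. Median ratio scaling gave 1004 and 1439 in sgVC, 979 and 1401 in sgCPT1A, and 434 and 686 in both, since it moves the whole scale. Leaving out Scrublet calls gave 1405 lower in sgVC, comparison with all other neutrophils gave 31 higher in both, and dropping the interferon limit gave 1213 lower between the libraries. Named genes that were past 1.5-fold and changed direction are given next, and the cause was not tested. Among genes under 1.5-fold, the interferon genes of the rule moved from 0.48 to -1.45 (Rsad2), 0.40 to -0.82 (Isg15) and 0.15 to -1.81 (Ifit1) in sgCPT1A when interferon-high cells joined the comparison group, as its construction implies. Over the rest in sgVC, thinning turned Ccl5 to 0.12, Cxcl9 to 0.27 and Mki67 to 0.85, and in sgCPT1A Ccl5 to 0.73; between the libraries it turned Areg to 0.12. Leaving out cells with any UMI of another type turned Ccl5 to 1.10, Mki67 to 0.10 and Septin11 to 0.68 in sgVC, Ccl5 to 0.79, Ccl7 to 1.35 and Ngp to 0.97 in sgCPT1A, and Il36a to -0.67 between the libraries. The 0.1% limit turned Ccl5 to 2.31, Areg to 0.16, Mki67 to 0.57 and Septin11 to 0.57 in sgVC, and Cxcl5 to 0.046, Ccl5 to 0.69 and Ccl7 to 0.89 in sgCPT1A. Equal weight for each cell turned Ccl5 to 0.31 and Mki67 to 0.30 in sgVC and Ccl5 to 0.14 in sgCPT1A, and Scrublet turned Ccl5 to 0.34 in sgVC. Depth limits the sgVC values most, as its inflammatory neutrophils held 397125 UMIs against 2949480 in sgCPT1A.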
